A study of Mus musculus with 9 samples.

Results

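Transcripts of V(D)J recombination and of the pre-T cell receptor (pre-TCR) were compared in mouse cells of 3 groups named control, abnormal non-malignant and NIC tumor, with 3 arrays each, in a series whose title concerns T-ALL oncogenesis (T cell acute lymphoblastic leukemia) and excess NOTCH1 without malignancy. The genes were listed by role: the recombinase genes Rag1 and Rag2, the junction enzyme gene Dntt, the pre-TCR chain gene Ptcra, and the end-joining genes Xrcc6, Xrcc5, Prkdc, Dclre1c, Xrcc4 and Lig4. Probe sets of the Affymetrix table whose annotation gives exactly 1 gene symbol were used, which left 9 of the 10 genes with 13 of the 45101 probe sets. Dclre1c had no such probe set and was not analysed here. For a gene with several probe sets, the one of highest mean over the 9 arrays gives its level, and the others are shown too. Values are log2 array signals, so a difference of 1 is a 2-fold difference. They compare 1 probe set between arrays and not one gene with another. RNA came from sorted cells. The sorted population, the strain, age and genotype of the mice, the meaning of NIC and whether the samples of a group came from separate animals are not given in the sources used here. The p-values therefore measure the spread between these samples, which may be technical.

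V(D)J recombination assembles antigen receptor genes in developing lymphocytes. RAG1 and RAG2 form the nuclease that cuts beside the gene segments, and both are needed for cutting. The broken ends are held by the Ku heterodimer, the products of Xrcc6 and Xrcc5, which recruits the kinase encoded by Prkdc. The nuclease Artemis, the product of Dclre1c, opens the hairpin ends, terminal transferase (Dntt) adds untemplated bases, and XRCC4 with DNA ligase IV (Lig4) seals the joint. The recombinase, terminal transferase and pre-TCR chain are made mainly in immature lymphocytes, whereas the end-joining proteins act in most cells. In the thymus, the product of Ptcra pairs with a newly made TCR beta chain to form the pre-TCR. Ptcra is a known target of Notch signalling, and Rag and Ptcra transcription depends on E proteins, which bind E-box motifs.

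The arrays were alike in median (5.67 to 5.77) but not all were alike within their group. Non-malignant arrays 2 and 3 resembled each other most (SD of the differences between their genes 0.16, next closest pair 0.30). For tumor array 1 the same measure was 0.46 to 0.47 against the 3 non-malignant arrays, and 0.63 and 0.79 against tumor arrays 2 and 3. Results are therefore also given without tumor array 1, and with that non-malignant pair averaged into 1 sample. T lineage transcripts were bright on every array, but not all were level. Of 4 T lineage markers tested, Cd3e, a chain of the TCR complex, stood between 11.76 and 12.36. Cd247 alone passed, and fell in tumors against controls (−2.09) and against non-malignant samples (−1.75), beside 7.19% and 2.7% of all genes. The 4 summed on the linear scale to 19228 to 23455 in controls and 20750 to 20834 in non-malignant samples. Their sums were 18455, 13884 and 12650 on tumor arrays 1 to 3. Of 7 B lineage markers tested, none rose in any comparison. In tumors against controls 2 fell, Cd79b (−1.38) and Vpreb1 (−0.68), beside 7.19% of all genes. Vpreb1 was dim on all tumor arrays and on control arrays 1 and 3. With values under the 40th percentile of each array set to it, Vpreb1 differed by only −0.08. The calls of Cd79b and Vpreb1 ended without control array 3, non-malignant array 2 or tumor array 1 or 2. That of Cd79b also ended without control array 1 or 2 or non-malignant array 3, and that of Vpreb1 without tumor array 3. Without control array 2 or non-malignant array 1 or 3, Vpreb1 was too dim to be tested. The summed linear signal of the B lineage list was 516 to 716 in controls, 403 to 558 in non-malignant samples and 418 to 629 in tumors. Myeloid markers summed to 486 to 575, 1059 to 1243 and 702 to 1849. Of 7 tested, 1 rose in each comparison with controls, Ctss, beside 2.87% and 8.48% of all genes. Its call in non-malignant samples ended without control array 3 or non-malignant array 2 or 3. Erythroid markers summed to 154 to 187, 271 to 281 and 220 to 657, highest on tumor array 2; neither of the 2 tested passed, with Alas2 at 1.59 in tumors against controls (adjusted p = 0.0563), and Hba-a1 was dim on all arrays. The part of such cells in the results below was not tested.

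The 4 genes with the widest differences were the lymphocyte-specific ones, and their promoters are shown because their values moved between the groups. These are the 250 bases before the annotated start in RefSeq (GRCm38.p6), 5′ to 3′ on the strand of the gene, and capitals mark matches on either strand to the E-box CANNTG (with its forms CAGCTG and CACCTG), the RBPJ core TGGGAA and the Ikaros core TGGGAT. The windows are chr2:101649533-101649782 (minus strand) for Rag1, chr2:101624462-101624711 (plus) for Rag2, chr19:41029025-41029274 (plus) for Dntt and chr17:46763713-46763962 (minus) for Ptcra.
Rag1: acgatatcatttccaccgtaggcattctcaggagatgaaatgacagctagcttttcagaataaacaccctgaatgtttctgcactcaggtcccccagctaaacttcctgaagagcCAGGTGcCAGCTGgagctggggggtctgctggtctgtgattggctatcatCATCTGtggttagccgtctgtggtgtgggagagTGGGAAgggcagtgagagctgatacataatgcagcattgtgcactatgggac
Rag2: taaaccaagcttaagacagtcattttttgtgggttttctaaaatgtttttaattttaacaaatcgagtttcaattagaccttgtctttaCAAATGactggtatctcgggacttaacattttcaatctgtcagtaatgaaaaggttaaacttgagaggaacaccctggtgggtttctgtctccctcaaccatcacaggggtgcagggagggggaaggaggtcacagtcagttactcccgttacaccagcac
Dntt: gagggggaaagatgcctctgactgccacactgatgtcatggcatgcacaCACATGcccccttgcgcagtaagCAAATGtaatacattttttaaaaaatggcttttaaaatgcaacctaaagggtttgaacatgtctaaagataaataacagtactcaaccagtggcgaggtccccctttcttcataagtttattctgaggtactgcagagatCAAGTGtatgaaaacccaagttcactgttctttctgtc
Ptcra: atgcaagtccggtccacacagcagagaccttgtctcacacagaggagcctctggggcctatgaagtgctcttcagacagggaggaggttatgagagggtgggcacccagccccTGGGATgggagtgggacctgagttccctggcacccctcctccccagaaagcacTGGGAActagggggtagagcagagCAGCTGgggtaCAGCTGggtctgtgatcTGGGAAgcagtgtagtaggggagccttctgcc
The Ptcra window held 2 E-boxes, both of the form CAGCTG, which start 60 and 49 bases before the gene. It also held 2 RBPJ cores, at 84 and 32 bases, and 1 Ikaros core at 137 bases. The Rag1 window held 3 E-boxes, at 135, 128 and 85 bases, of which 1 had the form CACCTG and 1 the form CAGCTG, and 1 RBPJ core at 52 bases. The Rag2 window held 1 E-box and the Dntt window 3, none of them in those forms, and neither held an RBPJ or Ikaros core. Among all 32851 promoter windows in the table, 66.2% held a CANNTG, 13.0% a CAGCTG, 17.2% a CACCTG, 21.6% an RBPJ core and 12.5% an Ikaros core. Such matches describe the letters only, and binding was not measured.

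The recombinase genes were high in controls and non-malignant samples and low in the tumors. Rag1 read 13.22, 13.58 and 12.89 on control arrays 1 to 3, 12.59, 12.51 and 12.51 on the non-malignant arrays, and 11.50, 7.62 and 7.36 on the tumor arrays. Every tumor array lay under every other array, and tumor array 1 lay well above tumor arrays 2 and 3. Rag1 was 21.1-fold lower in tumors than in controls (log2 fold change −4.40 ± 0.88 SE, limma adjusted p = 0.0116, n = 3 each). The call held without any 1 array, at −5.74 without tumor array 1. Against non-malignant samples it fell by 3.71 (SE 0.88, 13.1-fold, adjusted p = 0.0485), a call that ended without any 1 array other than tumor array 1, and with the non-malignant pair averaged (adjusted p = 0.169) or only these 2 groups fitted (0.129). As these are bulk samples, fewer cells that make a transcript and less of it per cell cannot be told apart.

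Rag2 read 9.28, 10.20 and 9.38 in controls, 9.60, 9.31 and 9.28 in non-malignant samples and 7.11, 5.85 and 6.08 in tumors. Controls and non-malignant arrays overlapped, and all tumor arrays lay below them. The fall against controls was 9.67-fold (−3.27 ± 0.35 SE, limma adjusted p = 0.000742), and −3.66 without tumor array 1. Against non-malignant samples it was 8.29-fold (−3.05 ± 0.35 SE, adjusted p = 0.00319), and both calls held without any 1 array. Rag2 had the smallest spread of the 4 lymphocyte-specific genes within the tumors, 1.26 from the lowest to the highest array, against 4.14 for Rag1. Its values on tumor arrays 2 and 3 lay not far above the 40th percentiles of those arrays (5.22 and 5.30). This may narrow its spread, so these spreads may not be comparable between the genes. The fall of Rag2 was present on tumor array 1 as well, where Rag2 stood 2.51 under the control mean and Rag1 1.73 under it.

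Dntt was also lower in tumors, with the widest spread of these genes. It read 12.94, 13.57 and 13.15 in controls, 12.18, 11.39 and 11.35 in non-malignant samples, and 11.98, 5.40 and 7.56 in tumors. Tumor array 1 lay within the range of the non-malignant arrays, and tumor array 2 lay close to the 40th percentile of its array (5.22), the level below which signal was treated as dim. The mean difference of tumors from controls was −4.91 ± 1.27 (SE, 30-fold lower, limma adjusted p = 0.0301). It was −6.74 without tumor array 1. The call ended without any 1 control array, non-malignant array 2 or 3, or tumor array 2 or 3, where the adjusted p reached 0.0975. It also ended with the non-malignant pair averaged (adjusted p = 0.051) and with only these 2 groups fitted (0.0838). Against non-malignant samples the difference of −3.33 did not pass (adjusted p = 0.144), and without tumor array 1 it was −5.16 (adjusted p = 0.000798).

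Dntt has 3 probe sets, and the other 2 gave the same direction. The _x_at suffix of the first says that some of its probes may also match other transcripts. The probe set 1450545_a_at read 13.04 to 13.58 in controls, 11.08 to 11.33 in non-malignant samples, and 11.89, 6.20 and 7.53 on tumor arrays 1 to 3. It fell by 4.70 in tumors (SE 1.15, adjusted p = 0.0334 in the limma fit of all probe sets). The dimmer 1420166_at read 7.92 to 9.38 in controls and 8.78, 5.60 and 4.56 in tumors, where tumor array 1 lay among the controls. The value on tumor array 3 lay under the 40th percentile of that array (5.30). On this probe set the difference of tumors from controls, −2.43, did not pass (adjusted p = 0.122 in the limma fit of all probe sets).

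**Figure D1:**
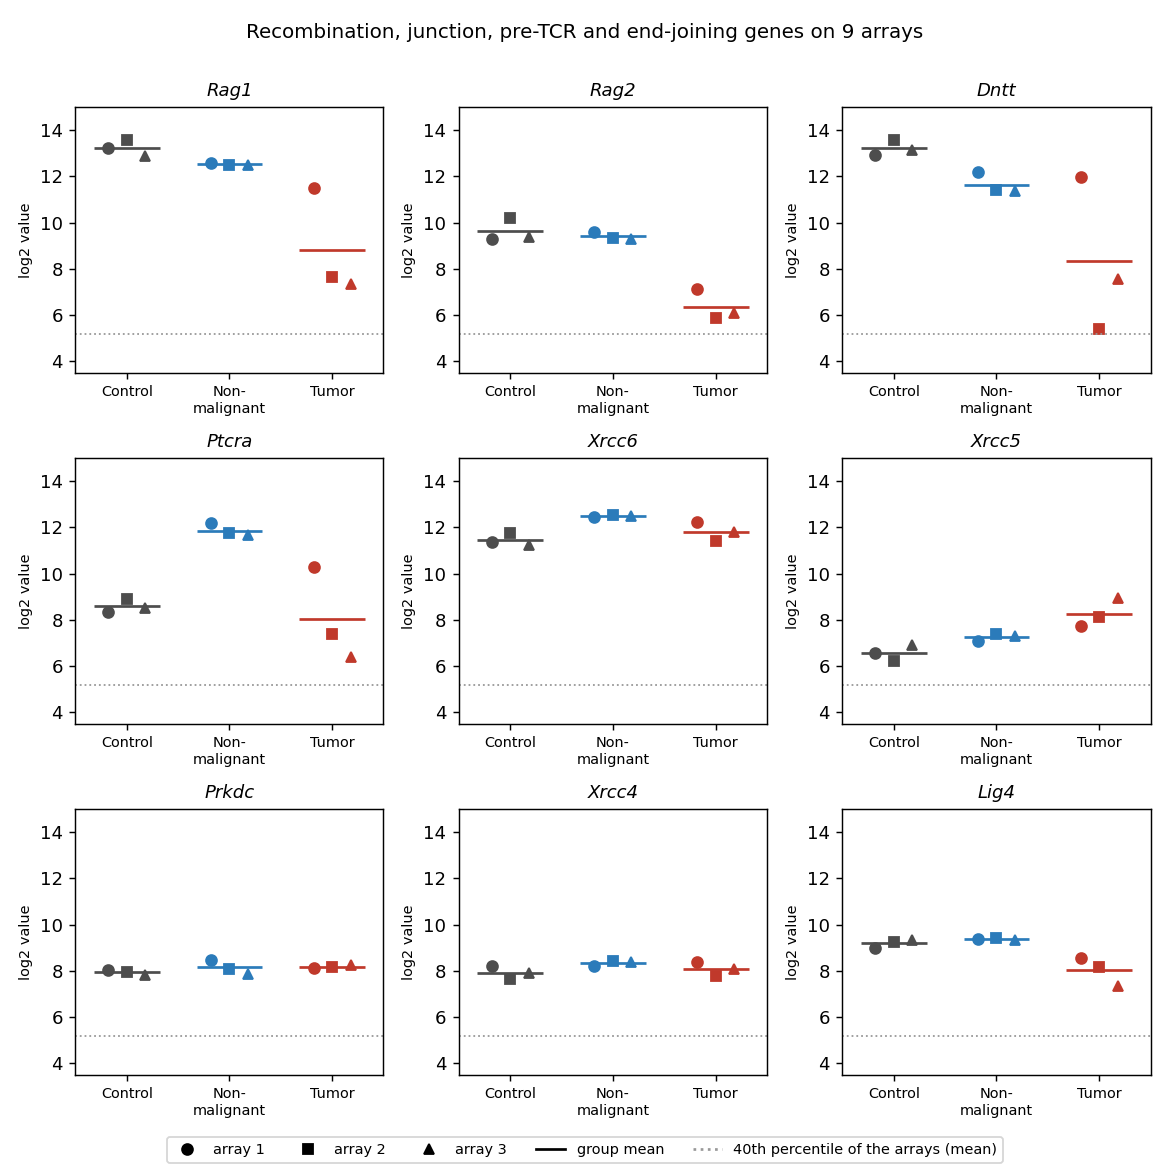
Log2 value of each gene (vertical axis) on the 9 arrays, by group (horizontal axis); marker shapes give the array number, bars the group mean, and the dotted line the mean 40th percentile of the arrays. Rag1, Rag2, Dntt and Ptcra differ most between the groups, and on tumor arrays 2 and 3 Rag1 stands at 7.62 and 7.36 against 11.50 on tumor array 1.

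Ptcra read highest in the non-malignant samples, and lay on both sides of the controls in the tumors. It read 8.35, 8.91 and 8.52 in controls, 12.19, 11.75 and 11.65 in non-malignant samples, and 10.30, 7.39 and 6.39 in tumors. All non-malignant arrays lay above all other arrays. Tumor array 1 lay between the controls and the non-malignant samples, and tumor arrays 2 and 3 lay below the controls. The non-malignant samples stood 9.64-fold above controls (3.27 ± 0.78 SE), which did not pass in the limma fit of all 3 groups (adjusted p = 0.0558). That fit shares the spread of the tumors, whose SD was 2.03 against 0.29 in controls and 0.29 in non-malignant samples. With only these 2 groups fitted the adjusted p by limma was 9.61e-05, and it was 0.000287 without tumor array 1 and 0.0181 without tumor array 3. With the non-malignant pair averaged it was 0.177.

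In tumors against non-malignant samples Ptcra fell by 3.84 (SE 0.78, 14.3-fold, limma adjusted p = 0.0336). The call ended without any 1 control or non-malignant array or without tumor array 2 or 3, at adjusted p up to 0.139, with the non-malignant pair averaged (adjusted p = 0.14) and with only these 2 groups fitted (0.107). Against controls the difference was −0.57 ± 0.78 (SE, limma adjusted p = 0.645), with a 95% confidence interval from −2.32 to 1.19. Without tumor array 1 it was −1.70 (adjusted p = 0.00525), and without tumor array 3 it was 0.25.

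Between controls and non-malignant samples, the means of Rag1, Rag2 and Dntt lay closer together, each lower in the non-malignant samples without passing. Rag1 was 0.69 lower in the non-malignant samples, with no overlap of the groups (limma adjusted p = 0.899, 95% confidence interval −2.67 to 1.28). Dntt was 1.58 lower, also without overlap (adjusted p = 0.758, interval −4.44 to 1.27). With only these 2 groups in the fit both passed, at adjusted p = 0.0416 for Rag1 and 0.00772 for Dntt. Rag2 differed by −0.22 (adjusted p = 0.935, interval −0.9997 to 0.55), and by 0.07 without control array 2, which held its highest value.

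Both Ku genes lay wholly above controls in the non-malignant samples, where Xrcc6 passed and Xrcc5 did not, and the difference between them was not tested. Xrcc6, which encodes Ku70, read 11.35, 11.77 and 11.23 in controls, 12.43, 12.55 and 12.48 in non-malignant samples and 12.23, 11.40 and 11.81 in tumors. Every non-malignant array lay above every other array, and the tumors overlapped the controls. Xrcc6 rose 2.05-fold in the non-malignant samples (1.04 ± 0.21 SE, limma adjusted p = 0.0263). The call ended without control array 1 or 3, without any 1 non-malignant array, and with the non-malignant pair averaged (adjusted p = 0.123). In tumors it stood 0.36 above controls (adjusted p = 0.268). The second Xrcc6 probe set, 1428504_at, was dim on 8 of the 9 arrays (4.17 to 5.35), and the average of both gave 0.65 in the non-malignant samples (adjusted p = 0.181).

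Xrcc5, which encodes Ku80, read 6.58, 6.23 and 6.92 in controls, 7.07, 7.38 and 7.30 in non-malignant samples and 7.74, 8.12 and 8.95 in tumors. The 3 groups did not overlap and stood in that order. It rose 3.23-fold in tumors (1.69 ± 0.30 SE, limma adjusted p = 0.0075), a call that held without any 1 array, at 1.96 without tumor array 1. The non-malignant samples stood 0.67 above controls (adjusted p = 0.371), and the tumors 1.02 above the non-malignant samples (adjusted p = 0.0837, and 0.0134 without tumor array 1).

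Lig4 was the end-joining gene that fell in tumors. It read 9.23 and 9.33 on control arrays 2 and 3 and 9.002 on control array 1, 9.39, 9.41 and 9.31 in non-malignant samples and 8.56, 8.14 and 7.34 in tumors. All tumor arrays lay below all others, and controls and non-malignant samples overlapped. Lig4 fell by 1.18 against controls (SE 0.28, 2.26-fold, limma adjusted p = 0.0213, −1.45 without tumor array 1) and by 1.36 against non-malignant samples (adjusted p = 0.0335). The first call ended without control array 2 or 3 and with only these 2 groups fitted (adjusted p = 0.071). The second ended without any 1 control or non-malignant array or tumor array 2, with the non-malignant pair averaged (adjusted p = 0.142) and with only these 2 groups fitted (0.103).

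Prkdc and Xrcc4 did not pass in any comparison. Prkdc, the catalytic kinase subunit, read 8.02, 7.94 and 7.83 in controls, 8.47, 8.09 and 7.87 in non-malignant samples and 8.12, 8.17 and 8.26 in tumors. The tumors lay just above the controls, by 0.25 (limma adjusted p = 0.363, 95% confidence interval −0.15 to 0.66). Xrcc4, the partner of the ligase, read 7.63 to 8.19 in controls, 8.18 to 8.43 in non-malignant samples and 7.76 to 8.39 in tumors, and all groups overlapped. Its tumor difference was 0.17 (adjusted p = 0.601, interval −0.30 to 0.65), and −0.17 on its second probe set 1424602_s_at (adjusted p = 0.796 in the fit of all probe sets). In tumors against non-malignant samples Prkdc differed by 0.04 (interval −0.37 to 0.44) and Xrcc4 by −0.25 (interval −0.73 to 0.22).

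**Figure D2:**
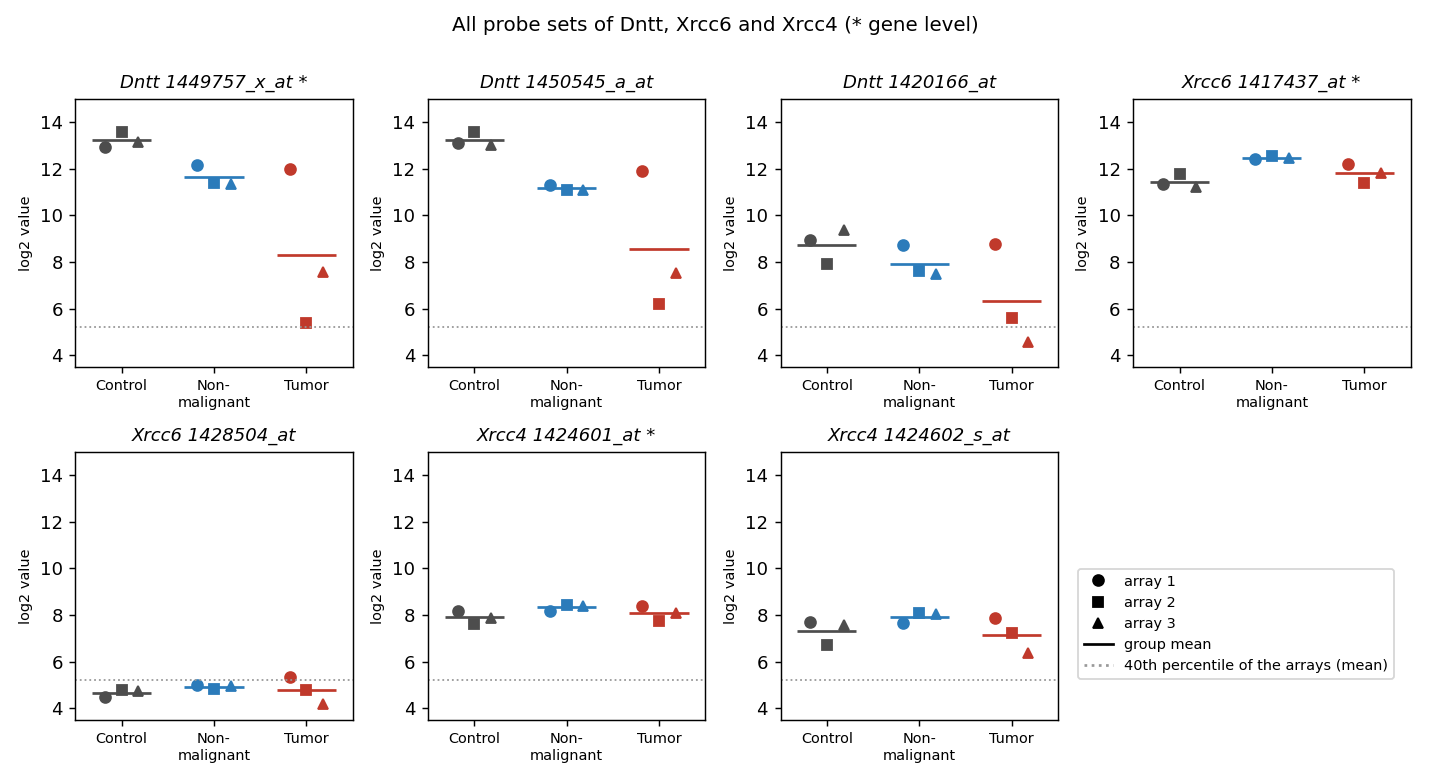
Log2 value (vertical axis) of every probe set of Dntt, Xrcc6 and Xrcc4 by group (horizontal axis); shapes give the array, bars the mean, the dotted line the mean 40th percentile, and the asterisk the probe set used for the gene. All 3 Dntt probe sets are highest among the tumors on array 1, and Xrcc6 1428504_at lies at 4.17 to 5.35.

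By count, 1 of the 9 genes rose and none fell in non-malignant samples against controls by limma, where 2.87% of all 13296 genes tested rose and 0.654% fell. In tumors against controls 1 rose and 4 fell, beside 8.48% and 7.19% of all genes. In tumors against non-malignant samples none rose and 4 fell, beside 1.53% and 2.7% of all genes. At an unadjusted p under 0.05, 3 genes were higher and 0 lower in the first comparison, 1 higher and 4 lower in the second, and 1 higher and 6 lower in the last, beside 1766, 4280 and 3444 of the 13296 genes in either direction. The median log2 fold change of the 9 genes was 0.21, −0.57 and −1.36 in the same order, and that of all genes 0.01, 0.06 and 0.03. Without tumor array 1, 2 genes rose and none fell in non-malignant samples (4.15% and 1.19% of all genes), 1 rose and 5 fell in tumors against controls (16.6% and 14.5%), and 1 rose and 6 fell in tumors against non-malignant samples (11.9% and 13.8%).

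The counts were lower with the non-malignant pair averaged. None of the 9 then passed in non-malignant samples by limma (1.36% of all genes higher and 0.212% lower), 1 rose and 3 fell in tumors against controls (6.24% and 4.89%), and only Rag2, which fell, in tumors against non-malignant samples (0.0529% and 0.363%). With only the 2 groups compared in each fit, 2 rose and 2 fell in non-malignant samples (6.27% and 2.28%), 1 rose and 2 fell in tumors against controls (3.87% and 2.71%), and 1 fell in tumors against non-malignant samples (0.168% and 0.656%). Both tumor comparisons use the same tumor arrays, and both comparisons with controls the same controls, so they are not independent of each other.

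Groups that did not overlap were counted as well. Non-malignant samples lay wholly above controls for 3 genes (Ptcra, Xrcc6 and Xrcc5) and wholly below for 2 (Rag1 and Dntt), where 17.0% and 9.15% of all genes did so. Tumors lay wholly above controls for Xrcc5 and Prkdc and wholly below for Rag1, Rag2, Dntt and Lig4, where 18.2% and 14.3% of all genes did so. Tumors lay wholly above non-malignant samples for Xrcc5 and wholly below for 5 genes (Rag1, Rag2, Ptcra, Xrcc6 and Lig4), where 12.3% and 14.8% of all genes did so.

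**Figure D3:**
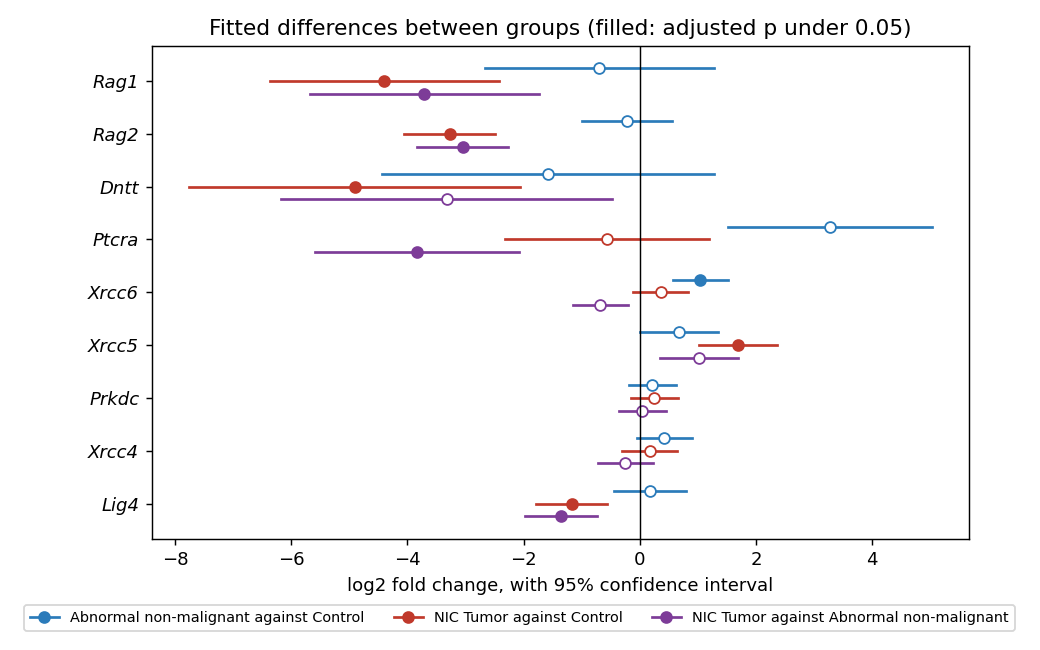
Fitted log2 fold change (horizontal axis, points) with its 95% confidence interval (lines) for the 9 genes and 3 comparisons; filled points have an adjusted p under 0.05. Tumor differences of Rag1 and Rag2 from controls are −4.40 and −3.27, whereas those of Prkdc and Xrcc4 are 0.25 and 0.17.

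Among the 9 genes, the tumors differed most from each other in Dntt, Rag1 and Ptcra. Between the lowest and the highest tumor array Dntt spanned 6.58, Rag1 4.14 and Ptcra 3.91, where the median gene spanned 0.58. These spans were wider than those of 99.99%, 99.8% and 99.7% of the genes tested. In the same arrays Prkdc spanned 0.13. Set against the mean of the controls, tumor array 1 stood at −1.73 for Rag1, −1.24 for Dntt and 1.71 for Ptcra, tumor array 2 at −5.61, −7.82 and −1.20, and tumor array 3 at −5.87, −5.67 and −2.21. For each of these 3 genes tumor array 1 was the highest tumor array, as it was for Rag2, Xrcc6, Xrcc4 and Lig4, while it was the lowest for Xrcc5 and Prkdc.

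**Figure D4:**
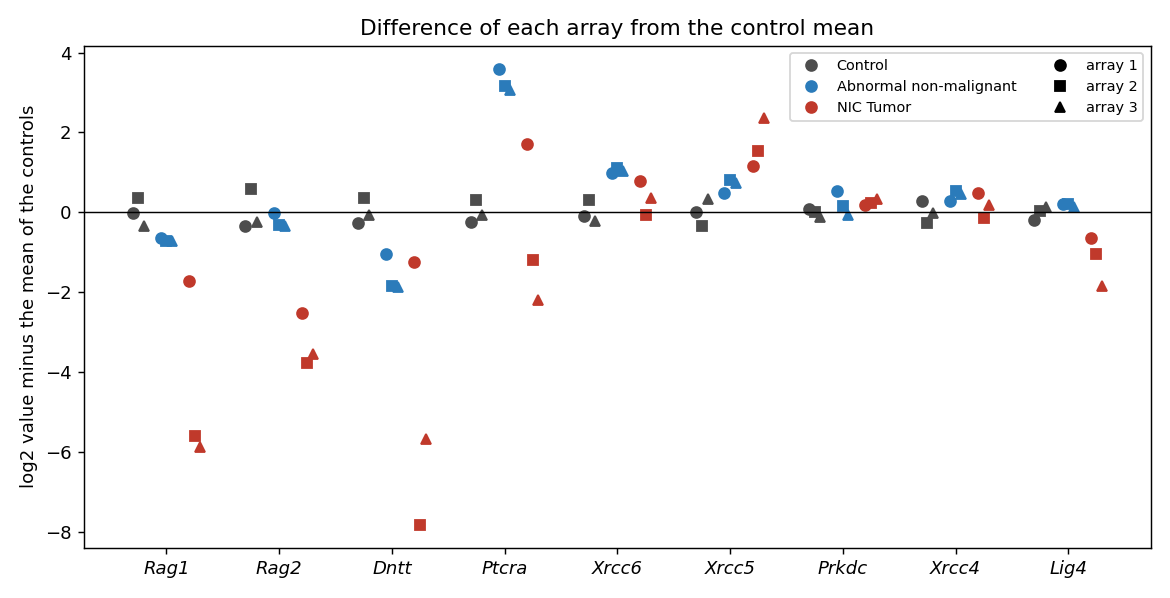
Log2 value minus the mean of the 3 controls (vertical axis) for each gene (horizontal axis); colours give the group and shapes the array. Tumor array 1 lies at −1.73 for Rag1 and 1.71 for Ptcra, apart from tumor arrays 2 and 3, and the 3 non-malignant arrays lie between 3.06 and 3.59 for Ptcra.

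Markers of CD4+CD8+ thymocytes, the stage that rearranges the TCR alpha locus, were lower in the tumors than in controls, as were the recombinase genes. Of 7 tested, 4 fell against controls, beside 7.19% of all genes. They were the coreceptor genes Cd4 (−2.12) and Cd8b1 (−1.70), Arpp21 (−1.95) and Themis (−1.19), which acts in thymocyte selection. The calls of Cd4 and Cd8b1 ended without any 1 control. Without tumor array 1, 6 of the 7 fell (14.5% of all genes), and 2 did with only the 2 groups compared (2.71%). Against non-malignant samples, where Rag1 and Rag2 were called lower, 0 of the 7 markers passed by limma. Their median there was −0.92, and 4 had an unadjusted p under 0.05, beside 3444 of all 13296 genes. The summed linear signal of the list was 27954 to 38683 in controls, 20880 to 25952 in non-malignant samples, and 19118, 15879 and 7338 on tumor arrays 1 to 3. No marker of this list was dim on all arrays. Of 8 markers listed for CD4-CD8- CD25+ thymocytes, 4 rose in non-malignant samples (Il2ra, Hes1, Cd44 and Lyl1) and none fell, beside 2.87% and 0.654% of all genes. In tumors 3 rose against controls (Il2ra, Hes1 and Lyl1) and Gfi1 fell, beside 8.48% and 7.19% of all genes. Gfi1 had log2 fold changes of −1.47 against controls and −1.74 against non-malignant samples, where 2.7% of all genes fell. The calls of Il2ra and Hes1 held without any 1 array. Those of Cd44, Lyl1 and Gfi1 ended without control array 2 or 3 or any 1 non-malignant array, and those of Lyl1 and Gfi1 without control array 1 too; in tumors both also ended without tumor array 2, and Lyl1 without tumor array 3. With the non-malignant pair averaged, 2 rose in each comparison with controls and none fell. Then 1.36% and 6.24% of all genes rose in these comparisons. The summed signal of this list was 1340 to 1630 in controls, 4269 to 5493 in non-malignant samples and 2873 to 4209 in tumors. Of 6 mature T cell markers, 4 rose in each comparison with controls and none fell, beside rises of 2.87% and 8.48% of all genes. The call of S1pr1 in non-malignant samples ended without non-malignant array 2 or 3. Summed signals of this list were 858 to 926, 2956 to 4665 and 4054 to 6240. Whether the makeup of the sorted cells had a part in the Rag, Dntt and Ptcra values was not tested.

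Of 18 end-joining and recombination partners tested by limma, none passed in non-malignant samples against controls or in tumors against non-malignant samples. In these comparisons 5 and 2 had an unadjusted p under 0.05, beside 1766 and 3444 of all 13296 genes. In tumors against controls 1 rose and none fell, beside 8.48% and 7.19% of all genes. At an unadjusted p under 0.05, 8 of the 18 passed there, and 4280 of all 13296 genes. With only the 2 groups compared, 1 rose in non-malignant samples (6.27% of all genes). None rose and 1 fell in tumors against controls in such fits (3.87% and 2.71%). The median log2 fold change was 0.08 in non-malignant samples, −0.10 in tumors against non-malignant samples and −0.04 in tumors against controls. The gene that rose was Poll, a polymerase that fills gaps in end joining. It lay under the 40th percentile on all 3 controls (4.91 to 5.08) and read 5.53, 6.28 and 6.84 in tumors. Its fitted rise was 1.23 (SE 0.27, limma adjusted p = 0.0161), and its call ended without control array 2 or 3. With the dim controls set to the 40th percentile the difference was 1.02, a value that was not tested. Atm, the kinase that signals double-strand breaks, stood 0.56 higher in tumors (adjusted p = 0.058) and the repair phosphodiesterase gene Tdp2 0.67 lower (−0.67, adjusted p = 0.0603). Without tumor array 1, 1 rose and 2 fell in tumors against controls (16.6% and 14.5% of all genes). In tumors against non-malignant samples 1 rose (11.9%).

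Of 20 genes that regulate Rag, Dntt and Ptcra transcription, 2 rose in non-malignant samples and none fell, beside 2.87% and 0.654% of all genes. The list median was −0.06. Id1, an inhibitor of E proteins, read 6.90 to 7.47 in controls, 10.87 to 10.97 in non-malignant samples and 9.65, 9.34 and 8.07 in tumors. It rose by 3.74 ± 0.36 (SE, limma adjusted p = 0.000439) in non-malignant samples and by 1.85 in tumors, calls that held without any 1 array. Foxo1, a factor that activates Rag transcription, was named after its values were seen. It rose by 1.55 in non-malignant samples (limma adjusted p = 0.0433), and its call ended without any 1 control or non-malignant array or tumor array 2. Its tumor values were 9.29, 8.08 and 7.89.

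In tumors against controls 2 of these regulators rose (Id1 and Lef1) and 4 fell, with a median of 0.07, beside 8.48% and 7.19% of all genes. The T lineage factor Bcl11b read 11.96 to 12.68 in controls and 11.60, 10.61 and 9.80 in tumors, and in tumors it fell by 1.68 (limma adjusted p = 0.0178), a call that ended without control array 2 or 3 or tumor array 2. Satb1, a chromatin organizer of thymocytes, fell by 1.55 (adjusted p = 0.0209), with its call ending without any 1 control. The other two, Gata3 and Foxo3, fell by 1.28 and 0.81. The call of Gata3 ended without any 1 control or non-malignant array, that of Foxo3 without array 2 or 3 of any group, and that of Lef1 (0.82) without control array 2 or 3 or tumor array 2. Without tumor array 1 the list gave 3 rises and 8 falls (16.6% and 14.5% of all genes). With the non-malignant pair averaged it gave 2 and 2 (6.24% and 4.89%). With only the 2 groups compared it gave 1 rise and 0 falls (3.87% and 2.71%). Against non-malignant samples 1 fell, Id1 (−1.89), beside 2.7% of all genes. That call ended without control array 3 or any 1 non-malignant array, and the list median was −0.53.

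The receptor complex and its proximal kinases were measured by 11 tested genes. In tumors against controls 1 rose and 4 fell, with a median of −0.51, beside 8.48% and 7.19% of all genes. With only the 2 groups compared, 1 rose and 2 fell (3.87% and 2.71% of all genes). Cd247, the zeta chain that signals in the pre-TCR and TCR, read 11.72, 12.18 and 11.77 in controls, 11.57, 11.55 and 11.52 in non-malignant samples, and 10.72, 9.52 and 9.16 in tumors. It fell by 2.09 (limma adjusted p = 0.00489), a call that held without any 1 array, whereas the chains Cd3e, Cd3d and Cd3g differed by −0.21, −0.33 and −0.37 without passing. Fyn, a Src family kinase, rose by 2.01 (adjusted p = 0.00102), a call that also held without any 1 array. Themis, counted among the CD4+CD8+ thymocyte markers too, fell by 1.19. The adaptor genes Lat and Lcp2 fell by 0.89 and 0.86. The call of Lat ended without any 1 control or tumor array 2 or 3, and that of Lcp2 without control array 1 or 2, or array 2 or 3 of either other group.

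In non-malignant samples against controls 1 of the 11 rose, beside 2.87% of all genes. It was the kinase gene Zap70 (0.64, limma adjusted p = 0.0394), whose call ended without any 1 control or non-malignant array. In tumors against non-malignant samples Fyn rose by 1.06 and Cd247 fell by 1.75, and both calls ended without any 1 non-malignant array, tumor array 2 or 3, or control array 3; that of Fyn also ended without control array 2 and that of Cd247 without control array 1. Without tumor array 1, 8 of the 11 fell in each tumor comparison, beside 14.5% of all genes against controls and 13.8% against non-malignant samples. With the non-malignant pair averaged, or with only the 2 groups compared, 0 of the 11 passed by limma in tumors against non-malignant samples. In the fit of all 9 arrays, 5 had an unadjusted p under 0.05 there, beside 3444 of all 13296 genes. The Tcra probe set was dim on all 9 arrays.

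**Figure D5:**
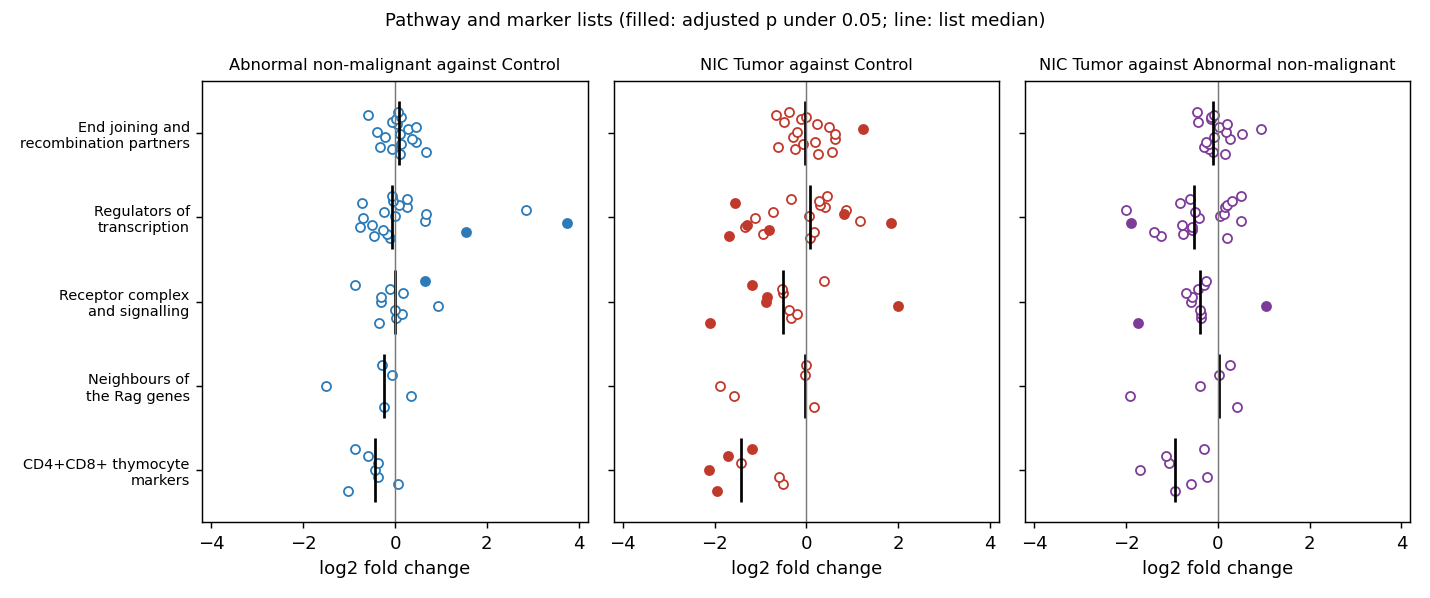
Fitted log2 fold change (horizontal axis) of the tested genes of 5 lists (rows) in the 3 comparisons (panels); filled points have an adjusted p under 0.05 and black lines are list medians. In tumors against controls the CD4+CD8+ thymocyte markers have a median of −1.42 and the end-joining partners of −0.04.

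Rag1 and Rag2 lie side by side on mouse chromosome 2, and 5 genes beside them were examined. By limma, 0 of these 5 passed in any comparison. At an unadjusted p under 0.05 there were 1, 2 and 1, beside 1766, 4280 and 3444 of all 13296 genes. Iftap, whose annotated span overlaps Rag2, read 8.13, 8.66 and 7.56 in controls, 8.48, 8.51 and 8.38 in non-malignant samples and 8.24, 5.18 and 6.22 in tumors. Its value on tumor array 1 lay among the controls and those on tumor arrays 2 and 3 below them (log2 fold change −1.57, adjusted p = 0.121). Without tumor array 1, 1 of the 5 fell in each tumor comparison, beside 14.5% of all genes against controls and 13.8% against non-malignant samples. Traf6, Prr5l and Commd9 differed from controls by −0.01, −0.03 and 0.17 in tumors. Ldlrad3 was dim on all tumor and non-malignant arrays. The controls alone let it be tested, and without any 1 control it was too dim for that. The direction of its difference from controls was thus set by the rule for testing, and is not read as a result. The fitted difference of tumors from controls was −1.89 (limma adjusted p = 0.0639). With dim values raised to the level under which signal is called dim, it was −1.22, a value that was not tested. That value rests mostly on control array 2, at 8.23 against 5.69 and 5.42 on the other controls.

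The genes most like each lymphocyte-specific gene were found by the root mean square (RMS) difference over the 9 arrays, after each gene was centred on its control mean. This measure describes likeness over 9 arrays that share 3 groups. For Rag1 they were Plxnd1 (0.55), Glcci1 (0.61) and Nhsl1 (0.68), where the median gene differed by 2.86. Plxnd1, a semaphorin receptor, read 10.32 to 10.61 in controls, 9.20 to 10.23 in non-malignant samples and 8.49, 5.99 and 5.41 in tumors. For Rag2 they were Bcl6 (0.35), a transcriptional repressor, Wls (0.40) and Nim1k (0.49), with Bcl6 at 6.80, 6.02 and 5.33 in tumors against 8.58 to 9.27 in controls. For Dntt the most like gene of all tested was Rag1 (0.95), before Glcci1 (1.07) and Nebl (1.23).

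Ptcra was unlike the other 3 (RMS differences 3.20 from Rag1, 2.64 from Rag2 and 3.88 from Dntt). The genes most like it were Lag3 (0.68), an inhibitory receptor of T cells, Prr29 (0.72) and Gm15708 (0.83), where the median gene differed by 2.19. Lag3 read 6.42, 6.28 and 6.69 in controls, 9.22, 9.83 and 9.82 in non-malignant samples, and 8.85, 5.75 and 5.77 in tumors. It thus shared with Ptcra a high tumor array 1 and values under the controls on tumor arrays 2 and 3.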

How the data were processed

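Sorted mouse cells were measured on 9 Affymetrix arrays. Per the labels' protocols, RNA was purified with TRIZOL and RNeasy columns and labelled as biotinylated cRNA. The deposited values are on a log2 scale and normalized by the authors. The log2 base was read from the values, and the background correction, normalization and summarization are not given in the sources used here. The number of arrays limits the precision.

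Of the 45101 probe sets, 34945 carry exactly 1 gene symbol and give 18193 genes. Genes were tested where the signal exceeded the array's 40th percentile on 3 or more arrays, and signal under it is called dim. This left 13296 genes. limma 3.58.1 (R 4.3.3) fitted 1 mean per group to all arrays, with a variance trend, 6 residual and 3.6 prior degrees of freedom. Tests were two-sided, and calls needed a Benjamini-Hochberg adjusted p under 0.05 over all genes tested. The script was checked on simulated data for the sign and mean size of planted changes. That simulation gave each gene the same spread in all groups. In these data the root mean square SD was 0.49 in tumors, 0.27 in controls and 0.23 in non-malignant samples. The check therefore does not give the error rate of these fits. With 3 samples per group the smallest exact permutation p is 0.1. Python 3.11.15, pandas 2.3.3 and matplotlib 3.10.9 made tables and figures.

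The text names all members, the 3 genes of each pathway list with the smallest adjusted p and the 3 most like each lymphocyte-specific gene; other list genes were named after their values were seen. Members, lists and alternatives were chosen with earlier results of these data known. Alternatives covered scaling, filters, probe set rules, variance models, thresholds, the groups fitted, a replicate block, averaging and left-out arrays. Comparative genomic hybridization and karyotyping were not used here.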

Additional observations from a re-analysis of the deposited data

How the results depend on the processing

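Of the log2 fold changes of the 9 genes under each alternative, 489 kept their direction and side of the threshold, 56 lost and 17 gained a call, and 5 changed sign. Rag1, Rag2 and Xrcc5 in tumors against controls kept their calls under every alternative run at the adjusted p threshold of 0.05. The sign changes were all of uncalled values. Xrcc4 in tumors against controls was −0.13 with array weights, and Prkdc in tumors against non-malignant samples −0.043 with the non-malignant pair averaged. Over left-out arrays that Prkdc difference ranged from −0.097 to 0.204, Rag2 in non-malignant samples against controls from −0.392 to 0.066, and Ptcra in tumors against controls from −1.70 to 0.252.

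Called among the 9 genes, in the order non-malignant against control, tumor against control and tumor against non-malignant, were 1, 5 and 4 in the fit reported. They were 0, 2 and 1 at an adjusted p under 0.01, and 4, 3 and 1 with only the 2 groups compared. In the first comparison they were 2 with quantile normalization or the 60th percentile filter, 0 with probe sets averaged, and 3 with array weights. In the last they were 1 with every probe set tested and 8 with array weights. With the non-malignant pair averaged they were 0 in the first and 1 in the last. Over left-out arrays they ranged from 0 to 2, 3 to 6 and 1 to 7.

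Over all genes, 469, 2083 and 562 were called. An adjusted p under 0.01 gave 233, 584 and 83, array weights 2421, 4885 and 5700, and only the 2 groups compared 1114, 859 and 108. Adding a 2-fold minimum left 1190 in the second and 356 in the last. Testing every probe set gave 3278 in the second, over 28123 probe sets. Averaging the non-malignant pair gave 208 in the first and 55 in the last. Over left-out arrays the counts ranged from 205 to 708, 926 to 4121 and 53 to 3400. The cause of these shifts was not tested.

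Arrays of different groups share replicate numbers, but same-numbered arrays did not deviate together (correlations −0.05 to 0.22), so the numbers do not pair the samples. With the replicate number as a block, 0 of the 9 genes were called in the first comparison and 2 in the last, with 287 of all genes in the last.

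Signal near or under the 40th percentile limits what can be read of Dntt on tumor array 2 and of its probe set 1420166_at on tumor arrays 2 and 3. The same holds for the second Xrcc6 probe set on all arrays but 1.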
